A study of Mus musculus with 8 samples.

Results

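*Mib1*, *Mib2*, the genes of the Notch ligands *Jag1*, *Jag2*, *Dll1* and *Dll4*, and the endocytosis genes *Epn1*, *Epn2* and *Dnm2* were taken by symbol from the expression table, which held 9 of the 9 among its 14608 genes. RNA was sequenced from the mouse outflow tract (OFT) at E11.5. The 4 control libraries, titled WT and with a genotype label that gives no allele, stood against 4 libraries labelled Mib1V943F/+ Gata6STOP/+. The latter carry a missense allele of *Mib1* and a truncating allele of *Gata6*, each heterozygous and in the whole animal. Each library was a pool of 3 individuals according to the labels, so a value is an average over embryos. Levels are in CPM, scaled by the authors to a common library size, and the reads on the listed genes ran from 10.7 × 1000000 in control replicate 2 to 30.5 × 1000000 in mutant replicate 3.

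A Notch ligand acts on the neighbouring cell only after its own cell has pulled on it. MIB1 and its relative MIB2 are E3 ligases that attach ubiquitin to the tail of a ligand, epsins (EPN1 and EPN2) recognise the tagged tail and join it to the clathrin coat, and dynamin 2 (DNM2) cuts the coated vesicle from the membrane. The force of this uptake opens the receptor to cleavage, and the released intracellular domain acts with RBPJ in the nucleus. In the OFT, Notch signalling in the endocardium is known for its part in the transition of endocardial cells to the mesenchyme of the cushions, from which the valves form.

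The targeted genes were examined first. *Gata6* RNA measured 236, 279, 271 and 261 CPM in control replicates 1 to 4 and 213, 284, 276 and 224 CPM in mutant replicates 1 to 4. The ranges overlapped, with 2 of the 4 mutant values on each side of the control mean, and the log2 fold change was -0.08 (95% confidence interval -0.29 to 0.14, exact permutation p = 0.543). It was -0.15 without mutant replicate 2, -0.0075 without mutant replicate 1 and -0.0032 with the GC trend removed. The *Gata6* level therefore did not set the labels apart, and the interval, with its lower end at -0.29, leaves room for only a small reduction. Whether the labels are right was not tested further, and the libraries are called control-labelled and mutant-labelled. A gene on the opposite strand, 1010001N08Rik, overlaps *Gata6* and averaged 26.4 CPM. The change in *Mib1* is a single amino acid, so its RNA level does not test the label.

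*Mib1* was the more abundant of the 2 ligases. It stood at 138, 107, 109.9 and 132 CPM in control-labelled and at 123, 137, 123 and 126 CPM in mutant-labelled libraries, or 122 ± 15.6 against 128 ± 6.62 CPM (SD, n = 4). The mutant-labelled values all fell inside the control range. The log2 fold change on log2(CPM + 0.5) was 0.07 (standard error 0.09, adjusted p = 0.746 in limma, exact permutation p = 0.486), and it was -0.0080 once the trend of each library with GC content had been removed. Leaving out 1 library moved the *Mib1* value to between 0.015 (control replicate 2) and 0.14 (control replicate 1). *Mib2* stood at 29.1, 33.6, 38.0 and 32.8 CPM in control-labelled and at 32.4, 25.8, 35.1 and 30.4 CPM in mutant-labelled libraries. Its groups overlapped as well, and the log2 fold change, -0.11 (standard error 0.11, exact permutation p = 0.429), became 0.021 with the GC trend removed, -0.028 without mutant replicate 2 and -0.17 without mutant replicate 3.

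Across all genes limma gave 0 genes an adjusted p under 0.05, which is 0% of the 14608 tested, with 0.124 as the smallest adjusted p. At an unadjusted p under 0.05 there were 1763 genes (12.1%), 796 higher and 967 lower in mutant-labelled libraries, a split that became 1161 higher of 1901 with plain CPM. Without control replicate 2 the number was 1121, and without control replicate 3 it was 1172. Of the 9 members, 0 passed the adjusted threshold (lowest adjusted p = 0.240, for *Jag1*), and 3 had an unadjusted p under 0.05, namely *Jag1* on the higher side and *Dll4* and *Epn1* on the lower. That number was 1, with *Jag1* as the gene, without control replicate 2, without control replicate 3, without mutant replicate 2, without mutant replicate 3, with plain CPM and with the GC trend removed. With the replicate block and in limma without the trend it was 2, as *Epn1* was lost. Without control replicate 1 and without mutant replicate 4 it was 2, as *Dll4* was lost. The groups did not overlap for 1 of the 9 members, against 7.1% of all genes. The median log2 fold change was -0.05 over the members and 0.0010 over all genes (-0.0014 with median-of-ratios size factors).

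**Figure D1:**
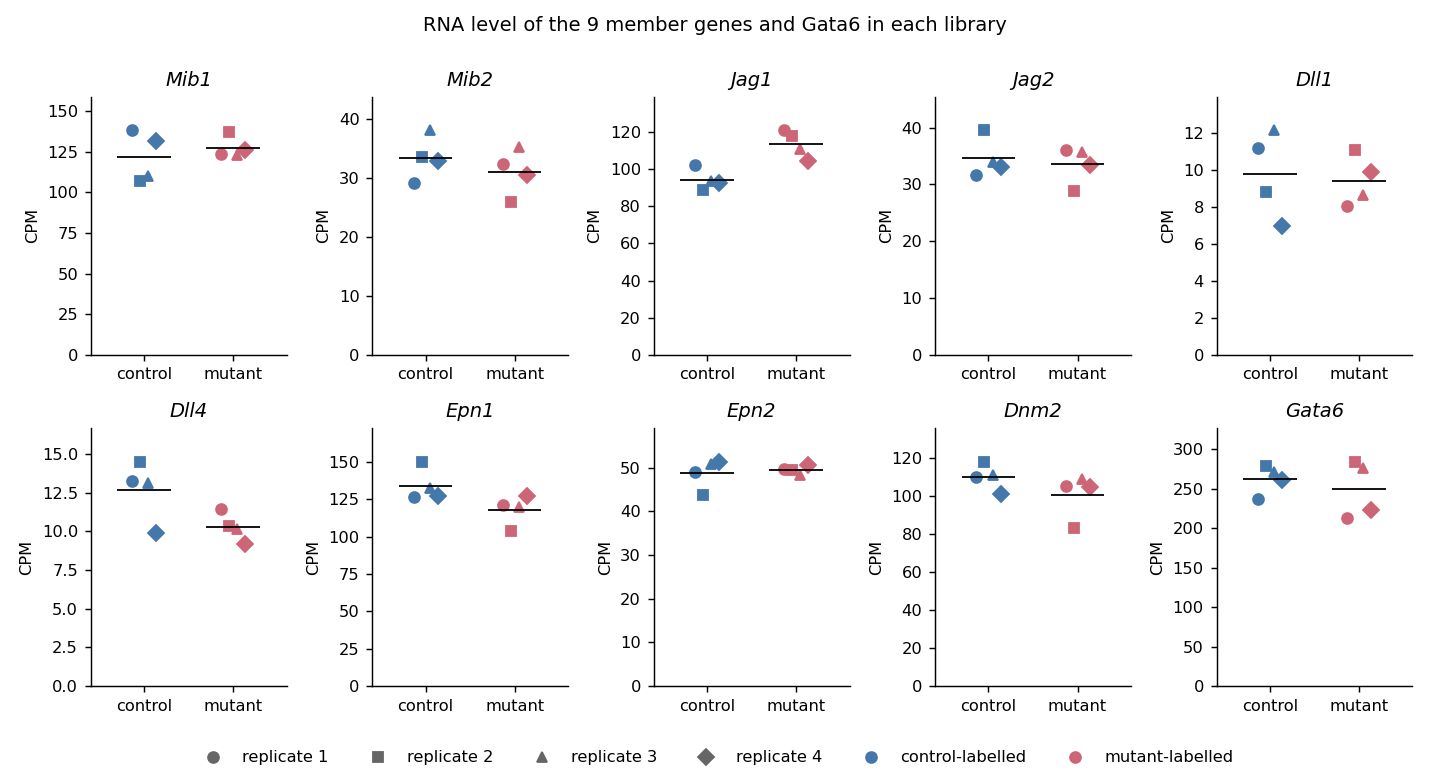
RNA level in CPM of the 9 members and *Gata6* in each library, with control-labelled libraries in blue, mutant-labelled libraries in red, 1 symbol per replicate number and a line at each group mean (n = 4). For *Jag1* the 4 mutant-labelled libraries, from 104 to 121 CPM, lie above the control-labelled libraries, from 89.0 to 102 CPM, and for the other genes the groups overlap.

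*Jag1*, a ligand gene of the Jagged type active in endocardium and smooth muscle, had the smallest p of the 9. It measured 102, 89.0, 93.9 and 92.7 CPM in control replicates 1 to 4 and 121, 118, 111 and 104 CPM in mutant replicates 1 to 4. Every mutant-labelled library thus lay above every control-labelled one. The group levels were 94.5 ± 5.65 and 114 ± 7.48 CPM (SD, n = 4). The log2 fold change was 0.27 (standard error 0.07, 95% confidence interval 0.11 to 0.42), with an adjusted p of 0.240 in limma and an exact permutation p of 0.0286, the smallest that 4 libraries against 4 can give. Over the alternatives in processing the adjusted p of *Jag1* ran from 0.163 to 0.554 and its log2 fold change from 0.23 to 0.31. By p it ranked 159 of 14608 genes, and 12.5% of all genes had a log2 fold change larger in size.

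*Dll4*, the Delta-type ligand gene best known from arterial endothelium and endocardium, lay on the other side. It measured 13.3, 14.5, 13.2 and 9.90 CPM in control replicates 1 to 4 and 11.5, 10.3, 10.2 and 9.21 CPM in mutant replicates 1 to 4. The 4 mutant-labelled values were below the control mean, but control replicate 4 was lower than 3 of them, so the groups overlapped. The levels were 12.7 ± 1.97 and 10.3 ± 0.930 CPM (SD, n = 4). The log2 fold change came to -0.28 (95% confidence interval -0.55 to -0.01, standard error 0.13, adjusted p = 0.404 in limma, exact permutation p = 0.114), and -0.39 without control replicate 4.

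The promoters of *Jag1* and *Dll4* are shown because these ligand genes had the largest log2 fold changes of the members, in opposite directions. RefSeq windows (build GRCm38.p6, 250 bases before to 50 after the start) were matched by symbol for 8 of the 9 members, in 11 windows, and *Mib1* had no entry. *Jag1* lies on the minus strand at chr2:137116471-137116770 and *Dll4* on the plus strand at chr2:119325534-119325833. Capitals mark the E-box CANNTG and the SP1 core GGGCGG, searched on both strands, and the marked stretches do not overlap.
Jag1: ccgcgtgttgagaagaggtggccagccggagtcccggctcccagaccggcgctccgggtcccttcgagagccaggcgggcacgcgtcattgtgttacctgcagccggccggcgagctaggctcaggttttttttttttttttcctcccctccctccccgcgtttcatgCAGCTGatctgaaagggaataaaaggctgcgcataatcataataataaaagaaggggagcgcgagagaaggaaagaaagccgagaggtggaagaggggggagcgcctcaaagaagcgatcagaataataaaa
Dll4: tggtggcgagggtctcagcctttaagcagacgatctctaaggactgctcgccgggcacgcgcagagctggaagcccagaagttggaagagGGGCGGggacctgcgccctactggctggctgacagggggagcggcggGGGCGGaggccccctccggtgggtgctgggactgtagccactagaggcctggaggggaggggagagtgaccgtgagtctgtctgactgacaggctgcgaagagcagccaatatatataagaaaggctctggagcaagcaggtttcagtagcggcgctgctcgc
The *Jag1* window held 1 E-box and 0 SP1 cores, and the *Dll4* window 0 E-boxes and 2 SP1 cores. Among 32851 windows of this length, 72.3% held the E-box letters and 35.7% the SP1 letters. The RBPJ core TGGGAA (25.6% of windows), the GATA core AGATAA (11.2%) and TATAAA (13.6%) occurred 0 times in both, and also in the windows of the other members. *Jag1* had 22 CpG pairs and 55.7% GC, *Dll4* 17 CpG pairs and 63.7% GC, and the median window 7 CpG pairs.

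The remaining ligand genes, *Jag2* and *Dll1*, had log2 fold changes smaller in size, and their groups overlapped. *Jag2* ran from 31.7 to 39.5 CPM in control-labelled and from 28.8 to 36.1 CPM in mutant-labelled libraries (log2 fold change -0.05, exact permutation p = 0.657), with its highest value in control replicate 2 and its lowest in mutant replicate 2. Its log2 fold change became 0.020 without the former, 0.024 without the latter and 0.092 with the GC trend removed. *Dll1* was the member with the fewest reads, at 9.79 ± 2.34 and 9.40 ± 1.36 CPM (SD, n = 4). Its control-labelled libraries spread from 6.98 to 12.1 CPM, which took in all mutant-labelled values (8.03 to 11.1 CPM, exact permutation p = 0.857). Its log2 fold change of -0.03 turned to 0.037 without control replicate 1, 0.074 without control replicate 3, 0.034 without mutant replicate 1 and 0.0018 without mutant replicate 3. The 95% confidence interval of *Dll1*, -0.40 to 0.33 on the log2 scale, was the widest of the members.

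Levels of different genes were compared per kilobase of exon. *Epn1* had the highest level in the control-labelled libraries, at 47.7 ± 3.95 CPM per kilobase (SD, n = 4), followed by *Dnm2* at 20.7 ± 1.29, *Jag1* at 16.2 ± 0.970, *Mib1* at 11.1 ± 1.43, *Epn2* at 9.32 ± 0.669, *Mib2* at 7.07 ± 0.776, *Jag2* at 4.97 ± 0.494, *Dll4* at 3.30 ± 0.511 and *Dll1* at 2.32 ± 0.554. The endocytosis genes thus stood above most of the ligands they serve. Neighbours in this order had separate control ranges except *Mib1* with *Epn2* and *Dll4* with *Dll1*. In the mutant-labelled libraries *Jag1*, at 19.5 ± 1.28 CPM per kilobase, and *Dnm2*, at 18.9 ± 2.18, exchanged places, with ranges that overlapped. With the length of the longest transcript the order of the control-labelled libraries was the same, and *Dnm2* stayed above *Jag1* in mutant-labelled libraries (28.6 against 20.3 CPM per kilobase).

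As shares of the summed level of the 4 ligand genes per kilobase, *Jag1* made up 62.2%, 57.0%, 59.0% and 63.9% of control replicates 1 to 4, against 67.4%, 68.2%, 66.0% and 65.3% of mutant replicates 1 to 4. *Dll4* made up 12.2%, 14.1%, 12.5% and 10.3% in control-labelled and 9.66%, 9.03%, 9.14% and 8.71% in mutant-labelled libraries. The groups did not overlap for the share of *Jag1*, higher in mutant-labelled libraries, nor for that of *Dll4*, lower there, whereas they overlapped for *Jag2* (13.9% to 21.2% over all libraries) and *Dll1* (6.17% to 10.5%). Shares add up to the whole, so one that is larger makes the others smaller, and they were not tested. The summed ligand level was 26.8 ± 1.40 CPM per kilobase in control-labelled and 29.2 ± 1.43 in mutant-labelled libraries (SD, n = 4), with ranges that overlapped.

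**Figure D2:**
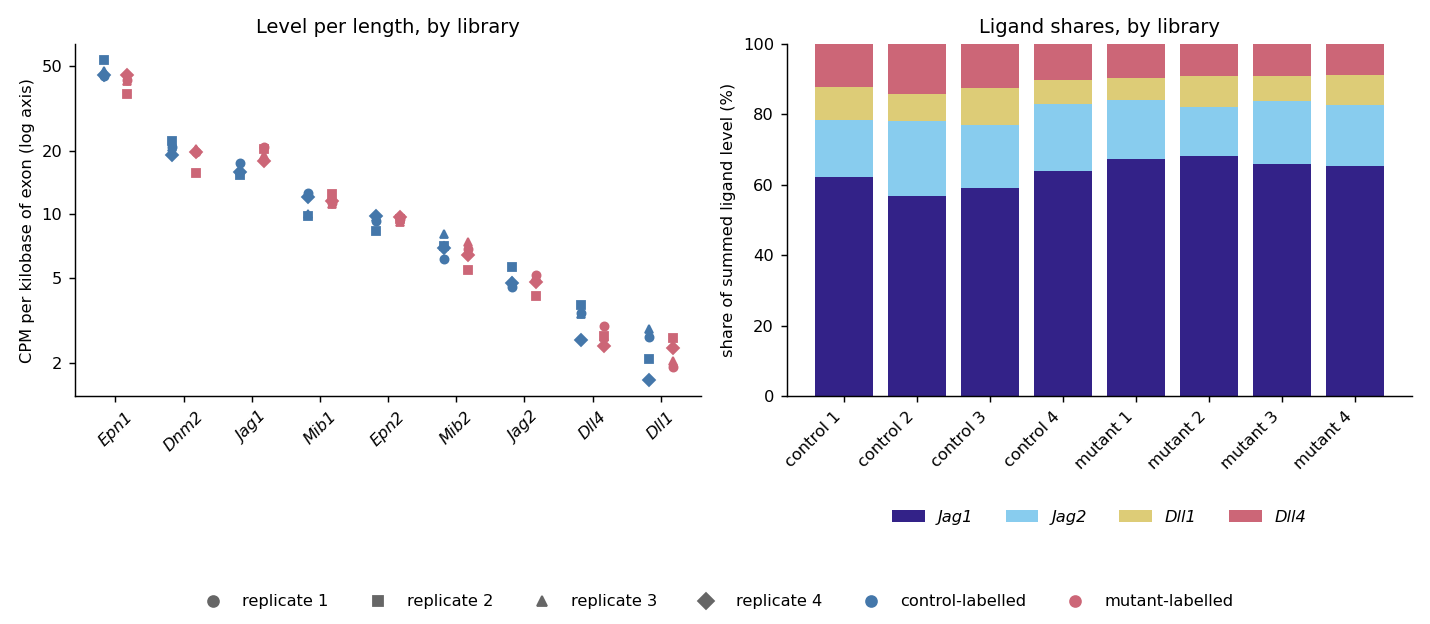
Left, level of each member in CPM per kilobase of exon (log axis) in each library, with control-labelled libraries in blue and mutant-labelled libraries in red. Right, share in percent of each ligand gene in the summed ligand level of a library, where *Jag1* takes 57.0% to 63.9% in control-labelled and 65.3% to 68.2% in mutant-labelled libraries.

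Of the endocytosis genes, *Epn1* had the largest log2 fold change, though not with the GC trend removed. This epsin gene measured 126.2, 150.0, 133 and 126.9 CPM in control replicates 1 to 4 and 121, 104, 119 and 126.9 CPM in mutant replicates 1 to 4. Mutant replicates 1 to 3 lay below every control-labelled library, and mutant replicate 4 lay level with control replicates 1 and 4. The log2 fold change came to -0.18 (95% confidence interval -0.36 to -0.01, standard error 0.08, adjusted p = 0.402 in limma, exact permutation p = 0.0857). *Dnm2* stood at 110.3, 118, 110.9 and 101 CPM in control-labelled and at 105, 83.3, 109 and 105 CPM in mutant-labelled libraries, with mutant replicate 2 far below the rest. Its log2 fold change was -0.14 (standard error 0.09, exact permutation p = 0.229), and -0.051 without that library. *Tmed1* overlaps *Dnm2* on the opposite strand at a mean of 43.6 CPM, and although the library kit keeps the strand, the strand setting of the quantification was not given in the sources used here, so reads of such pairs, *Gata6* included, may not have been told apart. *Epn2* ran from 48.3 to 50.7 CPM in mutant-labelled libraries and from 43.7 to 51.4 CPM in the control-labelled ones, where control replicate 2 was the lowest (log2 fold change 0.03, or -0.024 without it and 0.055 with the GC trend removed).

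The GC content of transcripts moved with these values. In control replicate 2, genes over 57.8% GC stood 0.44 higher on the log2 scale relative to the mean of the libraries than genes under 41.0%, the bounds of the outer 10% of genes on each side, and in mutant replicate 2 they stood 0.42 lower. The difference was 0.23 in control replicate 3 and between -0.09 and 0.05 in the other libraries. The longest transcript of *Epn1* has 62.5% GC, that of *Mib2* 61.1%, that of *Jag2* 61.9% and that of *Dnm2* 57.2%, against 48.8% in *Jag1* and 43.4% in *Mib1*. With the trend removed, the log2 fold change of *Epn1* was -0.04, that of *Dnm2* -0.04 and that of *Dll4* -0.20, while that of *Jag1* was 0.26.

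**Figure D3:**
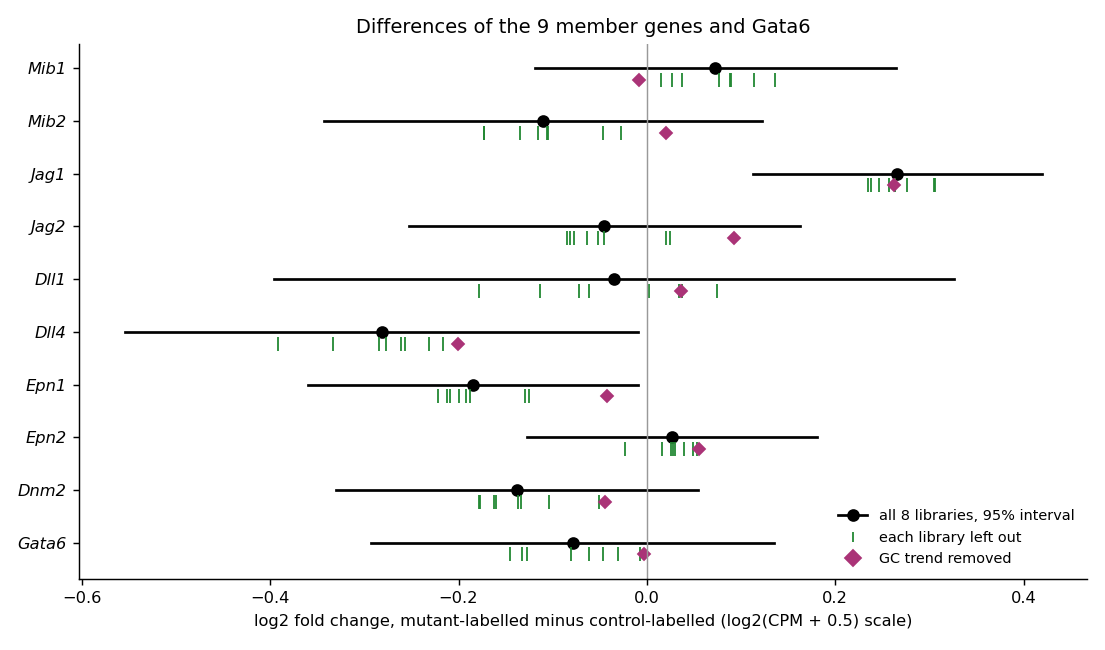
Log2 fold change of each member and *Gata6*, mutant-labelled minus control-labelled, with its 95% confidence interval from limma in black, the values with each library left out as green ticks and the value with the GC trend removed as a purple diamond. The *Jag1* values run from 0.23 to 0.31, and those of *Epn1* move from -0.18 to -0.04 with the GC trend removed.

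Around the members, 9 lists of pathway genes held 154 genes, of which 148 were in the table. Here too 0 passed the adjusted threshold in limma. At an unadjusted p under 0.05 there were 16 of the 148 (10.8%), 10 higher and 6 lower in mutant-labelled libraries, a share below the 12.1% of all genes. The number was 23 without control replicate 4, 23 with plain CPM, and between 12 and 17 with any other single library left out. The median log2 fold change over the 148 genes was 0.0042, against 0.0010 over all genes. Each list count below at an unadjusted p under 0.05 stands against the same 12.1%. Signs of fold changes within a list were not tested. Genes named for a small p were picked on these same values, so neither lack of overlap nor a small exact permutation p adds support. Groups did not overlap for 7.1% of all genes. Most abundant means the highest mean CPM of a list, without correction for length.

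Among other E3 ligases and deubiquitinases, 8 of 9 genes had a log2 fold change below 0 (median -0.12, or -0.06 with the GC trend removed, where 3 were above 0), and 2 had an unadjusted p under 0.05. These were the Neuralized genes *Neurl2*, at 18.4 ± 3.14 CPM in control-labelled and 13.3 ± 2.13 CPM in mutant-labelled libraries (SD, n = 4, log2 fold change -0.45, exact permutation p = 0.0571), and *Neurl1b*, at 27.1 ± 3.19 and 22.9 ± 1.54 CPM (log2 fold change -0.23, or -0.16 with the GC trend removed, exact permutation p = 0.0571). The most abundant gene of the list was *Usp9x*, a deubiquitinase, at a mean of 371 CPM. The 2 became 1 without control replicate 2, without control replicate 3, without mutant replicate 1, without mutant replicate 3 and with the GC trend removed.

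The list of other and non-canonical ligands had 8 of 12 genes in the table, without *Dll3*, *Dlk2*, *Dner* and *Cntn6*. Of the 8, 5 had a log2 fold change above 0 and 3 below (median 0.27), and 3 genes had an unadjusted p under 0.05, all with higher values in mutant-labelled libraries. They encode secreted matrix proteins: *Mfap5* (log2 fold change 0.47, exact permutation p = 0.0857), *Ccn3* (0.56, exact permutation p = 0.114) and *Thbs2* (0.47, or 0.28 without mutant replicate 2, exact permutation p = 0.143). In all 3 the value of mutant replicate 1 lay within the control range, and the number was 0 without mutant replicate 2, 1 without control replicate 2 and 1 without mutant replicate 4. *Ybx1* was the most abundant, at a mean of 793 CPM, with a log2 fold change of -0.12.

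Among 28 genes of the clathrin coat and its adaptors the median log2 fold change was -0.0035 (0.018 with plain CPM), with 14 above 0, and 2 had an unadjusted p under 0.05. *Ap2a1*, a subunit of the AP-2 adaptor, ran from 133 to 157 CPM in control-labelled and from 101 to 131 CPM in mutant-labelled libraries, ranges that did not overlap (log2 fold change -0.25, or -0.16 without mutant replicate 2 and -0.14 with the GC trend removed). *Fcho2*, which starts the clathrin pit, stood at 60.7 ± 10.3 and 74.0 ± 8.33 CPM (SD, n = 4, log2 fold change 0.29, or 0.18 without control replicate 2 and 0.17 with the GC trend removed). The clathrin heavy chain gene *Cltc* was the most abundant, at a mean of 513 CPM. The 2 became 5 without control replicate 4, 4 without mutant replicate 3, and 1 without control replicate 2, without control replicate 3 or without mutant replicate 2.

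Among 27 measured genes of vesicle scission and uncoating, 18 had a log2 fold change above 0 and 9 below (median 0.03), and 4 had an unadjusted p under 0.05, 3 of them on the higher side. *Dnm3*, a dynamin gene of low level here, measured 1.77, 1.71, 1.98 and 2.85 CPM in control-labelled and 3.64, 4.19, 3.38 and 3.12 CPM in mutant-labelled libraries, with groups that did not overlap. Its log2 fold change of 0.68 (adjusted p = 0.234 in limma, exact permutation p = 0.0286) is understated by the added 0.5 CPM. *Amph* (log2 fold change 0.36) and *Sh3gl3* (0.48), which bend membrane at the neck of a vesicle, were on the same side, and *Sh3kbp1* (-0.23), an adaptor, on the other with groups that did not overlap. *Hspa8*, the chaperone that strips clathrin, was the most abundant at a mean of 2088 CPM. Among 26 genes of endosomal recycling the median log2 fold change was 0.0017 (-0.00084 with median-of-ratios size factors), and *Ehd4* alone had an unadjusted p under 0.05, at 106 ± 14.6 and 82.6 ± 10.6 CPM (SD, n = 4, log2 fold change -0.35, exact permutation p = 0.0571). *Rab7*, of late endosomes, led that list at 205 CPM. The 1 recycling gene became 2 without control replicate 4, 2 without mutant replicate 1 and 3 without mutant replicate 3.

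Of the 17 genes of ligand cleavage and scaffolds, 2 had an unadjusted p under 0.05, against 12.1% of all genes. *Ncstn*, a subunit of the gamma-secretase that releases the receptor's intracellular domain, ran from 151 to 156 CPM in control-labelled and from 131 to 148 CPM in mutant-labelled libraries (log2 fold change -0.15). *Poglut1*, which adds glucose to Notch receptors, had a log2 fold change of 0.22 (0.13 without mutant replicate 2). *Adam10*, a protease that cuts the receptor once uptake has opened it, was the most abundant at 257 CPM. The 2 became 0 without control replicate 1 or control replicate 2, and 1 without control replicate 3, mutant replicate 1, mutant replicate 3 or mutant replicate 4 and with the GC trend removed. Of the 7 genes of receptors and Fringe enzymes, 0 had an unadjusted p under 0.05. *Notch1*, at 133 ± 8.25 and 126 ± 19.1 CPM (SD, n = 4), was the most abundant of them, with its lowest value, 99.1 CPM, in mutant replicate 2.

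In the nucleus, *Rbpj* was the 1 of 12 genes of the Notch complex with an unadjusted p under 0.05. It ran from 77.5 to 93.0 CPM in control-labelled and from 94.0 to 103 CPM in mutant-labelled libraries, ranges that did not overlap (log2 fold change 0.17, exact permutation p = 0.0286), and the log2 fold change was 0.10 with the GC trend removed. *Ncor1*, a co-repressor, led this list at 177 CPM. The 1 became 0 without control replicate 2, control replicate 3, mutant replicate 2 or mutant replicate 4 and with the GC trend removed, and 2 without mutant replicate 1 or mutant replicate 3. Among 15 measured Notch target genes 13 had a log2 fold change above 0. Their median was 0.15, and 0.14 with the GC trend removed, against 0.0010 and 0.0038 over all genes. *Heyl*, a repressor gene switched on by Notch, was the 1 with an unadjusted p under 0.05. It measured 26.3, 31.2, 31.3 and 31.5 CPM in control-labelled and 34.5, 37.6, 41.3 and 39.3 CPM in mutant-labelled libraries, with groups that did not overlap (log2 fold change 0.34, standard error 0.09, adjusted p = 0.234 in limma, exact permutation p = 0.0286). *Acta2*, a smooth muscle actin gene, was the most abundant at 1536 CPM (log2 fold change -0.03). The 1 target became 2 without control replicate 4, mutant replicate 1 or mutant replicate 4, 3 without control replicate 2, 4 without mutant replicate 2 and 3 with the GC trend removed.

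**Figure D4:**
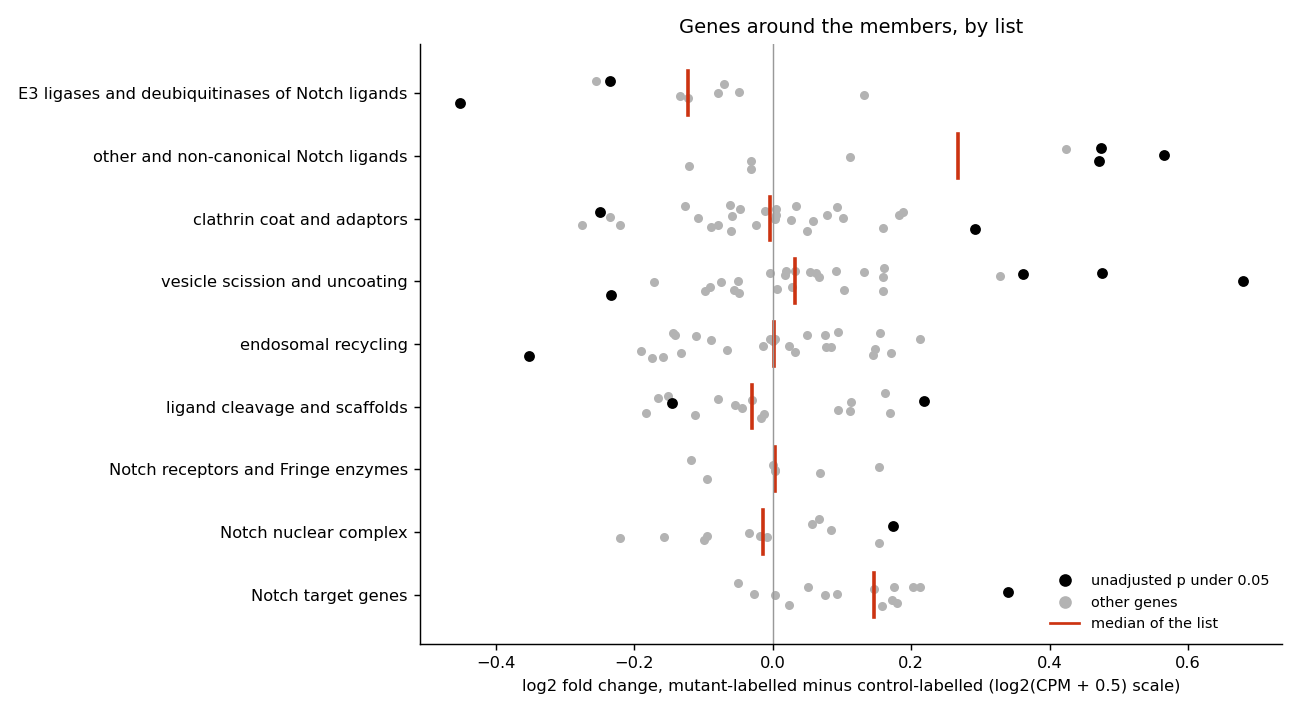
Log2 fold change, mutant-labelled minus control-labelled, of every measured gene in the 9 pathway lists, with genes at an unadjusted p under 0.05 in black, other genes in grey and the median of each list as a red line. The medians run from -0.12 for E3 ligases and deubiquitinases to 0.27 for other and non-canonical ligands.

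Cell type markers were summed in each library, because in bulk tissue fewer cells of a type and less RNA per cell cannot be told apart. The sum of 10 cardiomyocyte markers was 28473, 27851, 27723 and 24592 CPM in control replicates 1 to 4 and 21361, 19059, 20630 and 22842 CPM in mutant replicates 1 to 4, without overlap (exact permutation p = 0.0286). Of these markers 9 had an unadjusted p under 0.05, all with lower values in mutant-labelled libraries, and *Myh7*, the most abundant at a mean of 9139 CPM, had a log2 fold change of -0.39. The sum of 6 neuron markers in the table ran from 53.3 to 62.9 CPM in control-labelled and from 63.9 to 72.0 CPM in mutant-labelled libraries (exact permutation p = 0.0286), with 3 of the 6 at an unadjusted p under 0.05, all on the higher side, whereas the most abundant, *Tubb3* at 27.2 CPM, had a log2 fold change of -0.08. The part of either in the values of *Jag1*, *Dll4*, *Neurl2*, *Dnm3*, *Amph*, *Sh3gl3*, *Rbpj*, *Heyl* and the other Notch target genes was not tested.

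The summed markers of the types known to express *Dll4* and *Jag1* overlapped between the groups, while single markers differed more. The 12 endocardial and endothelial markers summed to 1081 ± 107 and 1016 ± 45.5 CPM (SD, n = 4, exact permutation p = 0.371), with 3 at an unadjusted p under 0.05, all of lower value in mutant-labelled libraries (log2 fold changes from -0.57 to -0.44, lowest adjusted p 0.280 in limma), and *Cdh5* as the most abundant at 181 CPM. The 8 smooth muscle markers, which share *Acta2* with the target list, summed to 3540 ± 279.7 and 3471 ± 262 CPM (exact permutation p = 0.686), with 2 higher (log2 fold changes 0.57 and 0.78) and 3 lower (from -0.40 to -0.19) at an unadjusted p under 0.05, and 2 higher and 1 lower without overlap (lowest adjusted p 0.142 in limma). Cushion mesenchyme, led by *Col3a1* at 1989 CPM, summed to 6189 ± 221 and 6528 ± 852 CPM (exact permutation p = 0.543), with 0 of 10 markers at an unadjusted p under 0.05.

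The other marker lists also overlapped between the groups, with 5 second heart field markers in the table and 6 of 8 neural crest markers (without *Foxd3* and *Tfap2b*, led by *Ets1* at 116 CPM). Of the 5 second heart field markers 2 had an unadjusted p under 0.05, both higher in mutant-labelled libraries and 1 of them without overlap (median log2 fold change of the list 0.20, or 0.099 with the GC trend removed, lowest adjusted p 0.142 in limma). The most abundant of the 5, *Wnt5a* at 172 CPM, had a log2 fold change of -0.02. Single epicardial and macrophage markers, 1 in each list, had an unadjusted p under 0.05 with lower values in mutant-labelled libraries, and the neural crest, erythroid and endoderm lists had 0. Epicardial markers, led by *Upk3b* at 179 CPM, were highest in mutant replicate 2, where they summed to 615 CPM. Erythroid markers, led by *Hbb-y* at 1287 CPM, ran from 1521 to 5659 CPM with both extremes in mutant-labelled libraries. Macrophage markers, led by *Csf1r* at 19.1 CPM, ran from 55.2 to 85.0 CPM. Of the pharyngeal endoderm and epithelium list 2 of 8 markers were in the table, without *Epcam*, *Foxa2*, *Cdh1*, *Nkx2-1*, *Shh* and *Cldn6*, and *Krt8* stood at 45.8 CPM.

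**Figure D5:**
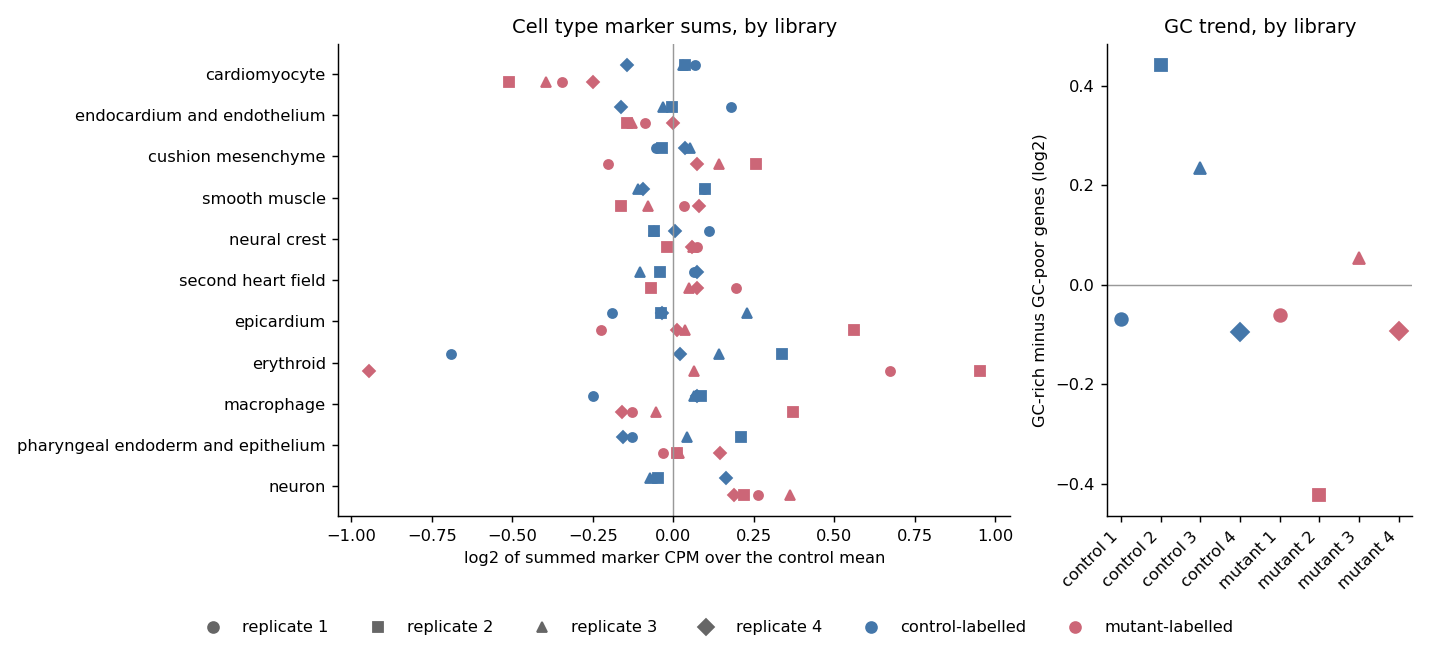
Left, log2 of the summed marker CPM of each cell type in each library over the control mean, where the cardiomyocyte sums of the mutant-labelled libraries (19059 to 22842 CPM) lie below those of the control-labelled ones (24592 to 28473 CPM). Right, median deviation of GC-rich minus GC-poor genes (over 57.8% and under 41.0% GC) in each library on the log2 scale, from 0.44 in control replicate 2 to -0.42 in mutant replicate 2.

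Genes with the pattern closest to a member were found by the mean absolute difference of centred log2 values over the 8 libraries. For *Mib1* they were *Mbtps2* (0.012), *Clasp2* (0.020) and *Slc31a1* (0.020), which like *Mib1* were lowest in control replicates 2 and 3. For *Jag1* they were *Trmt10a* (0.038), *Bbip1* (0.040) and *Plekha5* (0.043), and for *Dll4* they were *Echdc3* (0.058), *Myo1g* (0.062) and *Ap5s1* (0.066). *Bbip1* measured 19.0 to 20.9 CPM in control-labelled and 22.4 to 25.2 CPM in mutant-labelled libraries.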

How the data were processed

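The labels give 4 control and 4 mutant OFT samples and state 3 individuals in each pool, but the study reports other pool numbers, so the number of embryos behind a library is uncertain. The authors used cutadapt for adapters and RSEM (GRCm38) for quantification and deposited values in CPM scaled by the TMM method of edgeR. Every gene of the table reached 1 CPM in at least 4 libraries.

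Values were analysed as log2(CPM + 0.5) in limma 3.58.1 (R 4.3.3; lmFit, then eBayes with its trend option), two-sided, with Benjamini-Hochberg adjustment over 14608 genes and a threshold of 0.05. Exact permutation tests over 70 relabellings were added for single genes and marker sums and are unadjusted. The fit was tested on simulated data. In each library 100% of values under 100 steps were whole multiples of 1 step (tolerance 0.02 of a step, steps of 0.0325 to 0.0948 CPM), which gives the reads. Lengths, GC content (longest transcript) and overlaps came from GENCODE on GRCm38, which held 14594 of the genes.

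Members and lists were chosen with earlier results of these data known. Named genes are the members, *Gata6*, genes of the table that overlap them, up to 4 genes with the smallest unadjusted p under 0.05 and the most abundant gene of each pathway list, the most abundant gene of each cell type and some of the markers absent from the table, and 3 genes of closest pattern for *Mib1*, *Jag1* and *Dll4*. Alternatives were the pseudocount, a minimum mean of 5 CPM, no trend, other scalings, each library left out, a replicate block and a GC correction.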

Additional observations from a re-analysis of the deposited data

Results flagged for a closer look

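A library far from the other 3 of its group was found 7 times among 120 groups of 4 examined, and chance gives about 1 in 20. *Dnm2* was at 83.3 CPM in mutant replicate 2, against 105 to 109 CPM in the rest of its group. In the same library *Wnt5a* was at 145 CPM (others 176 to 181 CPM), *Csf1r* at 26.0 CPM (others 16.4 to 17.6 CPM) and the neural crest markers at 183 CPM in sum (others 193 to 195 CPM). *Heyl* was at 26.3 CPM in control replicate 1, against 31.2 to 31.5 CPM in the rest of its group, and there the macrophage markers summed to 55.2 CPM (others 68.6 to 69.7 CPM). The neuron markers summed to 62.9 CPM in control replicate 4, against 53.3 to 54.3 CPM in the rest of its group.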

How the results depend on the processing

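Under each of the 17 alternatives limma gave 0 genes and 0 members an adjusted p under 0.05, with the smallest adjusted p of all genes between 0.0789 and 0.483. Of 153 fold changes of members under alternatives, 138 kept their direction, those of *Jag1*, *Dll4*, *Epn1* and *Dnm2* under each. The 5 CPM filter, limma without the trend and the replicate block did not alter these fold changes at all. Part of the 138 was therefore fixed beforehand and says nothing on stability. The number of members at an unadjusted p under 0.05 was 1 with plain CPM, 1 with the GC trend removed and 1 with GC trend and replicate block together. With the replicate block alone it was 2, *Jag1* and *Dll4*, without *Epn1*. With the GC trend removed, with or without the block, the log2 fold change was -0.0080 for *Mib1*, 0.021 for *Mib2*, 0.092 for *Jag2* and 0.036 for *Dll1*.

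With each library left out in turn, genes at an unadjusted p under 0.05 ranged from 1121 to 2163, members from 1 to 3, and the log2 fold change from -0.085 to 0.024 for *Jag2*, from -0.18 to 0.074 for *Dll1* and from -0.024 to 0.053 for *Epn2*. List genes at an unadjusted p under 0.05 ranged from 1 to 2 for E3 ligases, 0 to 3 for other ligands, 1 to 5 for clathrin, 1 to 3 for recycling, 0 to 3 for cleavage, 0 to 2 for the nuclear complex and 1 to 4 for targets. The cause was not tested.

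Same-numbered libraries did not deviate together (correlations across genes of 0.03, -0.19, 0.03 and -0.05 for numbers 1 to 4), so the numbers were not taken to pair samples. With the replicate block, 1304 genes had an unadjusted p under 0.05, and lists had 1 (E3 ligases), 1 (clathrin), 2 (recycling), 0 (cleavage) and 0 (nuclear complex). The planned count tests (quasi-likelihood and likelihood ratio in edgeR, DESeq2) were not run. Whole multiples of 1 step were found in each library, but a check that took the smallest value of a column as 1 read passed in 3 of 8 columns. That value was 2 or 3 steps in 4 columns, and in 1 the check by its own count found too few low values. The refusal thus came from the check, and was followed. GC came from the longest transcript in place of the union of exons.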
